A study of Mus musculus with 16 samples.

Results

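Heat shock genes of the cytosol and mitochondria, 10 in all, were followed through embryos and offspring islets that developed from zygotes injected with sperm RNA. They were picked by symbol in the gene tables: the Hsp70 genes Hspa8, Hspa1a and Hspa1b, the Hsp110 gene Hsph1, the Hsp90 genes Hsp90aa1 and Hsp90ab1, the J-domain gene Dnajb1, the small heat shock gene Hspb1 and the mitochondrial chaperonin pair Hspd1 and Hspe1. All 10 members were found among 24486 entries of the islet tables and 23966 genes of the embryo tables. The sperm RNA was the 30 to 40 nt part of total sperm RNA, from C57BL/6J males that were bought at 5 weeks of age and fed either a normal diet (ND) or one high in fat (HFD), and it was injected at 2 ng per µl into fertilised ICR eggs from females 6 weeks old. HFD and ND therefore name the diet of the sperm donors, every embryo and offspring in the groups received sperm RNA, and no library of water-injected embryos was analysed here. Embryos were collected 56 h (8-cell) and 75 h (blastocyst) after the injection, with 1 library of 5 pooled embryos per group and stage. Islets were taken from F1 offspring after 6 h of fasting, with 3 libraries per group; the labels give neither the age of the offspring nor whether each library is a separate animal, so p-values measure only the spread between these libraries, which may be technical.

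Heat shock proteins are chaperones: they bind unfolded stretches of other proteins and help them fold, assemble or reach the protease. Hsp70 proteins cycle on and off their clients with the help of J-domain proteins, which deliver the client, and of Hsp110 proteins, which exchange the nucleotide, and they pass some clients on to Hsp90. Each arm has members made at all times (Hspa8, Hsp90ab1) and members that heat shock factor 1 (Hsf1) induces under stress (Hspa1a, Hspa1b, Hsp90aa1, Dnajb1, Hsph1, Hspb1). Mouse embryos are known to make heat shock proteins early after their genome is activated, and pancreatic beta cells carry a heavy load of protein synthesis for insulin.

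The positions of the genes in build mm10 bear on how their values can be read. Hspa1b (chromosome 17, 34956429 to 34959238) and Hspa1a (chromosome 17, 34969359 to 34972156) lie 10120 bases apart and encode near-identical proteins, so reads may have been split between them and their values are also given as a sum. Hspd1 (chromosome 1, 55077834 to 55087932) and Hspe1 (chromosome 1, 55088148 to 55091317) are listed head to head, 215 bases apart, while RefSeq extends Hspd1 to 55088243, past the start of Hspe1. In the tables none of the 10 members overlaps another listed gene.

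RefSeq windows (build GRCm38.p6, 250 bases before to 50 after a gene's start) were at hand for 7 of the 10 members, and the stretches below are shown because they hold the letters of the heat shock element, the site that Hsf1 binds. That element is built of inverted GAA units; GAANNTTC and TTCNNGAA were searched (each reads the same on both strands, and they overlap where 3 units follow each other), and the capitals mark the GAA and TTC units of each match. The Hspa1b stretch, chr17:34959304-34959363 on the minus strand, lies 125 to 66 bases before the start, and Hspa1a holds the same 60 bases at chr17:34972222-34972281, also on the minus strand. The Hspb1 stretch, chr5:135887794-135887853 on the plus strand, covers the same distances from its own start. The Hspe1 stretch, chr1:55088053-55088082 on the plus strand, lies 95 to 66 bases before the start of Hspe1, outside Hspd1 as the tables list it and inside Hspd1 as RefSeq extends it.
Hspa1b and Hspa1a: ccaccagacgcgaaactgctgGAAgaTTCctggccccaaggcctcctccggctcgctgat
Hspb1: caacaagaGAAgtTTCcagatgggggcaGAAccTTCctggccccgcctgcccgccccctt
Hspe1 and Hspd1: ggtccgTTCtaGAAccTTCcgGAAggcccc

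Hspa1b and Hspa1a each had 1 match of GAANNTTC, and their windows differed at 4 of 300 bases. Hspb1 had 2 separate matches. In the stretch before Hspe1, which 1 of the 2 Hspd1 windows also holds, a run of 4 units formed overlapping matches, so that both motifs shared a unit (a 3-unit match). Hsph1 had such a 3-unit match after its start and a TTCNNGAA match before it, and Dnajb1 had no match in its 2 windows. Counted by window, 7 of the 10 windows of these members held at least 1 of the 2-unit motifs and 4 held a 3-unit match (both of Hsph1, and 1 each of Hspd1 and Hspe1 over the same stretch). Of 32851 windows of all genes, 15.1% held a 2-unit motif and 0.603% a 3-unit match. These are matches of letters and not shown to be bound in these samples.

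Levels are deposited FPKM (fragments scaled to transcript length and to the size of the library), which allow levels of different genes to be set side by side per length. The tables hold no read counts; the most common ratio between low islet values put the depth of the other islet libraries at 0.946 to 0.978 of ND replicate 1, an estimate on which 17.8 to 21.2% of the low genes lay (within 0.02 in log2), while absolute depth and the depth of the embryo libraries are unknown. In islets the insulin gene Ins2 took 33.4 to 56.4% of the FPKM sum. Summed acinar (digestive enzyme) markers ran from 196500 to 272700 FPKM in ND and from 84400 to 185200 in HFD islets, with 17 of 17 tested markers at a negative log2 difference and 0 called, and summed beta cell markers from 288300 to 431300 in ND and from 451000 to 694700 in HFD islets. The median of all 11737 genes tested in islets was higher in HFD by 0.30 on the log2 scale. In embryos the median gene was lower in HFD by 0.32 at the 8-cell stage (log2 ratio of -0.32) and by 0.18 in blastocysts (-0.18). Differences are therefore also given after median ratio scaling, which sets the median gene near 0. Several markers went with the labelled tissues. Ins1 and Ins2 were listed at 0 in all 4 embryo libraries. The trophectoderm keratin Krt18 was at 24.5 and 14.1 FPKM in 8-cell embryos and 1826 and 1952 FPKM in blastocysts. Of 9 trophectoderm markers tested between the stages, 7 lay above 0 and 2 below, against 5816 and 3787 of 9603 genes. The 2 below were Hand1 (54.4 and 43.1, then 1.53 and 0.281 FPKM) and Tfap2c (28.1 and 35.15, then 27.9 and 25.6).

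The order of the 10 genes by level differed between embryos and islets. In 8-cell embryos Hspa8, Hsp90aa1 and Hsp90ab1 came first, at means of 1443, 1217 and 981 FPKM over both pools, and made up 35.5, 29.9 and 24.1% of the summed FPKM of the 10. In blastocysts the order was Hsp90aa1 at 4496, Hspa8 at 1922 and Hsp90ab1 at 1312 FPKM, and Hsp90aa1 alone made up 48.8% of the sum; in the ND pool it ranked 12th from the top of all 23966 genes. In islets the order was Hspa8 at 291.1, Hsp90ab1 at 231.5 and Hsp90aa1 at 73.8 FPKM over the 6 libraries, then Hspa1b at 45.2 and Hspa1a at 35.7. The ranges of Hspa8 (230.5 to 369 FPKM) and Hsp90ab1 (150.1 to 326) overlapped in islets, and Hsp90aa1 (56.6 to 101) lay below both. From rank 5 to rank 8 in islets (Hspa1a 35.7, Hspe1 35.7, Hspd1 32.9 and Hspb1 32.8 FPKM) neighbours lay within each other's spread. Embryo and islet libraries were made with different kits, and the embryo and islet tables were normalized separately, so only orders within a table are compared.

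**Figure D1:**
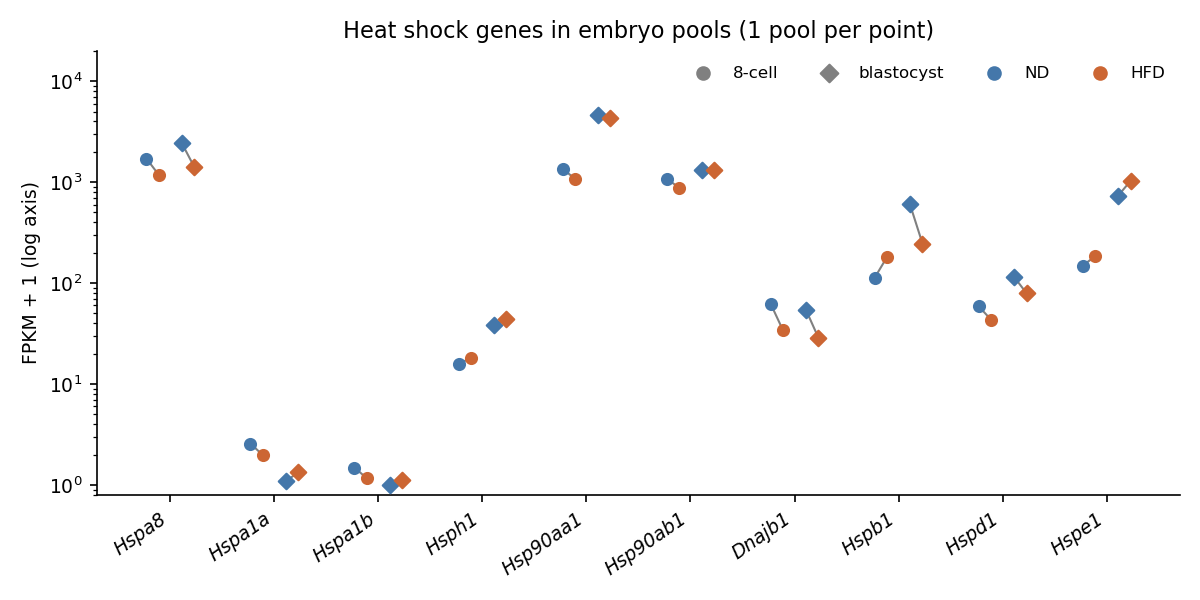
FPKM + 1 (log axis) of the 10 heat shock genes in the 4 embryo libraries; circles are 8-cell pools and diamonds blastocyst pools, blue after ND and orange after HFD sperm RNA, and a grey line joins the pools of a stage. Hsp90aa1, Hspe1, Hspd1 and Hsph1 sit higher in both blastocyst pools than in both 8-cell pools, Hspb1 slopes in opposite directions at the 2 stages, and Hspa1a and Hspa1b lie near the floor.

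Between the 8-cell stage and the blastocyst, 5 members rose and none fell among the 8 that passed the filter of at least 1 FPKM in 2 of 4 libraries. Stage was tested in limma with injection as a second term, so that the ND and HFD pools of a stage serve as its replicates and 1 residual degree of freedom remains. Of 9603 genes tested, 31.9% were called higher and 16.1% lower in blastocysts (adjusted p under 0.05), 48% in all. These are shares of calls in this fit of 4 pools. The median log2 difference of the 8 members was 1.10 against 0.30 for all genes. After median ratio scaling, 3 of the same 8 were higher (Hspe1, Hsp90aa1 and Hsph1) and none lower, against 24.6% higher and 23.9% lower of 9568 genes. Hspa1a then entered the fit through its 8-cell pools alone, where it is high, so its stage test is not counted.

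Hspe1, the lid of the mitochondrial chaperonin, had the largest stage difference of the 8 tested. It was at 147.8 and 183 FPKM in the ND and HFD 8-cell pools and at 730.5 and 1027 in the blastocyst pools, a log2 difference of 2.39 ± 0.22 (SE; adjusted p = 0.0011). Both blastocyst pools lay far above both 8-cell pools. Its barrel partner Hspd1 was at 57.95 and 42.2 FPKM, then 114 and 78.4, a log2 difference of 0.92 ± 0.21 (adjusted p = 0.0135). Hspd1 lost the call after scaling (0.59, adjusted p = 0.0589) and with stage as the only term, both with all 4 pools (adjusted p = 0.0619) and without the 8-cell HFD, the blastocyst ND or the blastocyst HFD pool (0.227, 0.365 and 0.0937). The ratio of Hspe1 to Hspd1 within a library, which no scaling of the library can move, was 2.55 and 4.34 in the 8-cell pools and 6.39 and 13.1 in the blastocyst pools. It was higher in the HFD pool at both stages, with 1 pool each and no test.

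Hsp90aa1, the stress-inducible Hsp90, was at 1359 and 1075 FPKM in 8-cell pools and 4664 and 4329 in blastocyst pools. Its log2 difference between stages was 1.89 ± 0.27 (adjusted p = 0.0033), and the call held in each alternative run. Hsp90ab1, the constitutive Hsp90, was at 1080 and 882 FPKM and then 1314 and 1310, a log2 difference of 0.43 ± 0.25 that did not pass the test (adjusted p = 0.203). The ratio of Hsp90aa1 to Hsp90ab1 went from 1.26 and 1.22 in 8-cell pools to 3.55 and 3.31 in blastocyst pools, close in ND and HFD at each stage. Hsph1, the nucleotide exchange factor, was at 14.9 and 17.1 FPKM, then 37.3 and 42.8, with a log2 difference of 1.27 ± 0.22 (adjusted p = 0.0058); the call was lost without the blastocyst HFD pool (adjusted p = 0.0715).

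Hspb1, the small heat shock protein that holds unfolded proteins without ATP, passed the stage test narrowly and unevenly. It was at 111.7 and 181 FPKM in the ND and HFD 8-cell pools and at 599 and 245 in the blastocyst pools, a log2 difference of 1.43 ± 0.45 (adjusted p = 0.042). The difference between stages was 2.41 in the ND pools and 0.44 in the HFD pools. The call was lost after scaling (1.09, adjusted p = 0.0803), at a pseudocount of 0.1 (adjusted p = 0.0651), without the filter (0.0996), without the variance trend (0.0521), and, with stage as the only term, without the 8-cell ND pool (0.0516) or the blastocyst ND pool (0.285).

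Hspa8, the constitutive Hsp70, was at 1711 and 1175 FPKM in the 8-cell pools and 2432 and 1412 in the blastocyst pools. Its stage difference of 0.39 ± 0.26 did not pass the test (adjusted p = 0.26), and the pools of the 2 stages overlapped. Dnajb1, the J-domain partner, was at 61.5 and 32.9 FPKM, then 53.2 and 27.7, with a stage difference of -0.22 ± 0.21 (adjusted p = 0.413). The inducible Hsp70 genes were close to absent from the embryo tables. Hspa1a was listed at 1.57 and 0.972 FPKM in 8-cell pools and 0.0843 and 0.342 in blastocyst pools, and Hspa1b at 0.488 and 0.162, then 0 and 0.131. Neither passed the filter as deposited. Summed, they were at 2.06 and 1.13 FPKM in the 8-cell and 0.0843 and 0.473 in the blastocyst pools. The sum reached the filter only through the 8-cell pools, so no stage test is given for it.

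The genes that work with these chaperones moved in both directions between the stages, as did all genes, of which 31.9% rose and 16.1% fell. Several lists (5 of 15, 3 of 9 and 2 of 6 higher) lay near that background. Of 15 other Hsp90 co-chaperones tested, 5 rose and 4 fell: Stip1, which bridges Hsp70 and Hsp90, went from 438 and 317 to 149.7 and 75.8 FPKM (log2 difference -1.796, adjusted p = 0.0024), Ptges3, the p23 co-chaperone, fell by 1.28 and Sugt1 by 1.14, and Fkbp4, an immunophilin, rose by 1.84. Among 12 cytosolic J-domain genes 2 rose and 3 fell, and the 3 that fell were the most abundant of those called: Dnajb6, at 1162 and 719 and then 691 and 446 FPKM (-0.72, adjusted p = 0.0445), Dnaja1 (-0.73) and Dnajc7 (-0.75). The Hsp70 co-chaperones rose in 4 of 9 cases, among them St13 (1.46), Bag3 (1.352) and Stub1 (1.22), and none fell. Of 5 other small heat shock genes tested, 3 rose: the crystallin Cryab went from 26.9 and 12.6 to 273 and 228 FPKM (3.68, adjusted p = 0.000595), with Hspb2 at 4.00 and Hspb8 at 3.98. Of 15 other mitochondrial chaperones and proteases 9 rose, Dnajc19 and the protease subunit Clpp among them (1.12 and 0.93), and Clpx, the unfoldase that feeds Clpp, fell by 1.15. The cytosolic chaperonin had 3 of 9 members called higher, with Cct5 at 0.89, and prefoldin 2 of 5, with Pfdn4 at 1.20. Other Hsp70 and Hsp110 family genes had 2 of 6 called higher, Hspa14 (0.88) and Hspa4l (1.37). Among Hsf genes, Hsbp1, a small protein that binds Hsf1, rose by 1.40, while Hsf1 itself was at 5.84 and 3.91 FPKM, then 2.14 and 3.21 (-0.67, adjusted p = 0.139). For comparison, 9 of 14 endoplasmic reticulum chaperones rose and 2 fell. Hspa4l, Hspb8, Dnajb4, Fkbp5 and Herpud1, of the endoplasmic reticulum list, were under 1 FPKM in both 8-cell pools. They passed the filter through the blastocyst pools alone, where they are high, so their stage tests give no support for a rise. The counts of their lists still include them. After median ratio scaling, where 24.6% of all genes were higher and 23.9% lower, the split moved toward lower calls in several lists: J-domain genes had 0 higher and 4 lower, Hsp90 co-chaperones 2 and 5, Hsf genes 1 and 2, and the cytosolic chaperonin 1 and 1. The small heat shock genes (3 and 0), Hsp70 co-chaperones (4 and 0) and prefoldin (2 and 0) kept their counts, and mitochondrial chaperones and proteases had 6 and 1.

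**Figure D2:**
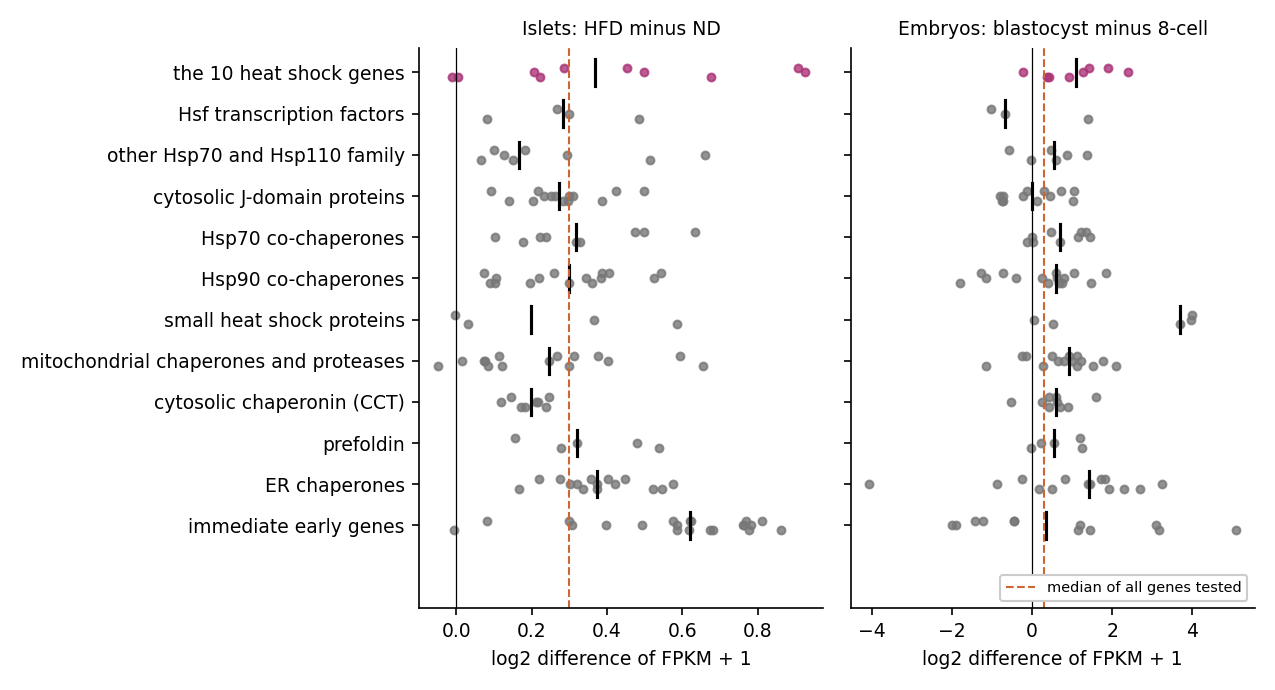
Log2 differences of FPKM + 1 for the 10 heat shock genes (purple) and for other chaperone lists and immediate early genes (grey), 1 point per gene tested, with a black bar at each list's median and a dashed line at the median of all genes tested. Left, islets, HFD minus ND, where the dashed line is at 0.30 and the median of the 10 genes at 0.37; right, embryos, blastocyst minus 8-cell, where the dashed line is at 0.30 and the median of the 8 tested genes at 1.10.

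The comparison of HFD with ND sperm RNA in embryos rests on 1 pool per group and stage, so ratios carry no replicate check. Of the members, 8 averaged 10 FPKM or more. At the 8-cell stage 0 of these 8 reached a log2 ratio of 1 in either direction, against 6.92% of 3687 genes. In blastocysts 1 of 8 did, Hspb1, which was lower, against 6.19% of 4134 genes in either direction and 4.91% lower. The members' median log2 ratio was -0.32 at the 8-cell stage, the same to 2 decimals as the median of all genes, and -0.32 against -0.18 in blastocysts.

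In blastocysts Hspb1 was the member with the widest gap between the pools, and at the 8-cell stage Dnajb1 was, as deposited. At the 8-cell stage Hspb1 was higher in the HFD pool by a log2 ratio of 0.69 (1.02 after scaling, past the fold used, as for 3.69% of genes), and in blastocysts it was lower in the HFD pool, with a log2 ratio of -1.29 (-1.10 after scaling, where 2.42% of genes were past the fold on the lower side). Dnajb1 was lower in the HFD pool at both stages, with ratios of HFD to ND of 0.535 and 0.52 (log2 -0.88 and -0.92; -0.55 and -0.74 after scaling). Hspa8 was also lower in the HFD pool at both stages, with ratios of 0.687 and 0.581 (log2 -0.54 and -0.78; -0.20 and -0.60 after scaling). Hspd1 had log2 ratios of -0.45 and -0.54, and Hsp90aa1 of -0.34 and -0.11. Hsp90ab1 had -0.29 and -0.01. Hspe1 (0.31 and 0.49) and Hsph1 (0.19 and 0.19) were listed higher in the HFD pool at both stages. After scaling, Hsp90aa1 and Hsp90ab1 were within 0.2 of the median gene at both stages, and Hspe1 and Hsph1 stayed above it.

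With both stages in a single limma model (injection, with stage as a second term), 0 of 8 members and 0% of 9603 genes were called. Without adjustment, 12.1% of genes had a p under 0.05 in limma, among them 2 members. These were Dnajb1 (log2 difference -0.90 ± 0.21, adjusted p = 0.387) and Hspa8 (-0.66 ± 0.26, adjusted p = 0.402). Markers of the embryo's cell types had these sums in the blastocyst pools: 3011 FPKM in ND and 3253 in HFD for trophectoderm, 305.4 and 229 for inner cell mass and epiblast, and 104 and 106.1 for primitive endoderm. Krt18 and Krt8 led the trophectoderm sum, and Zfp42 and Nanog that of inner cell mass and epiblast. Single markers went both ways. Among those averaging 10 FPKM or more, 3 of 6 trophectoderm and 1 of 4 inner cell mass and epiblast markers were higher in the HFD pool. Below that level Sox2, Fgf4, Esrrb and Prdm14 were higher and Tdgf1 lower. The part of these markers in the differences of Dnajb1, Hspa8 and Hspb1 was not tested.

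In islets of the offspring none of the 10 members passed the test between HFD and ND. The background was as sparse: limma called 6 of 11737 genes, 0.0511%. An unadjusted p under 0.05 was reached by 2 of 10 members, the inducible Hsp70 genes Hspa1a and Hspa1b, and by 30.5% of genes. All 3 HFD libraries lay above all 3 ND libraries for 3 of 10 members, Hspa1a, Hspa1b and Hspd1, against 41.5% of all genes. The median log2 difference of the members was 0.37 against 0.30 for all genes, and 0.02 against 0.01 after scaling, with 5 members above 0 and 5 below and again none called (0.0171% of genes).

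**Figure D3:**
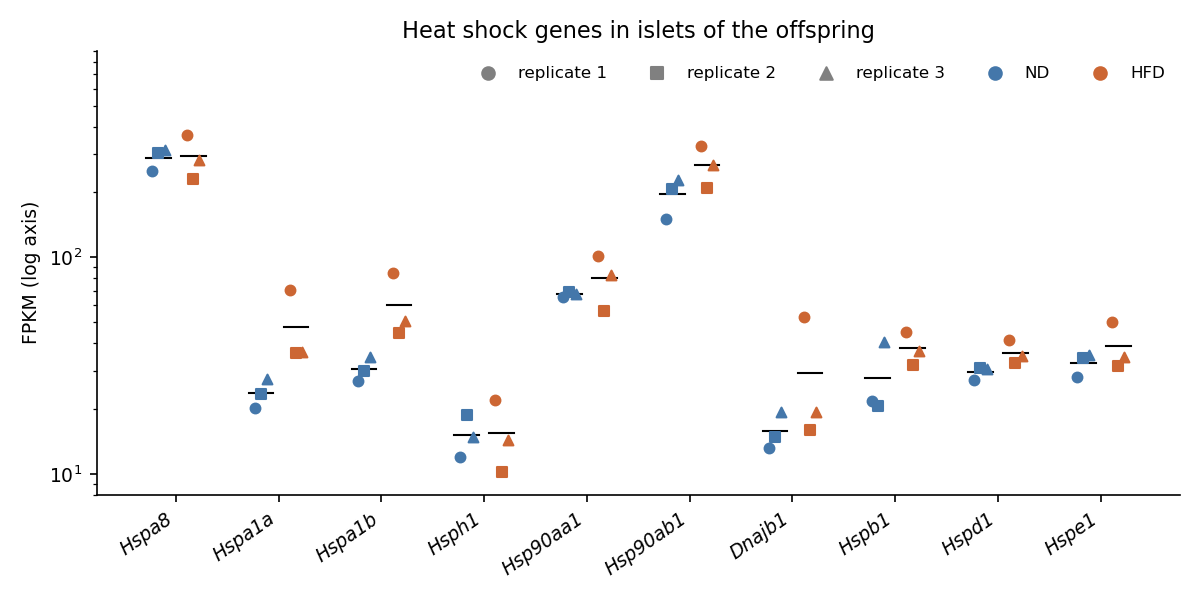
FPKM (log axis) of the 10 heat shock genes in the 6 islet libraries, ND in blue and HFD in orange; marker shapes give the replicate number and black bars the group means. HFD replicate 1, which has the highest FPKM sum of the 6 islet libraries, is the highest library for every member. The groups are apart for Hspa1a, Hspa1b and Hspd1.

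Hspa1b was at 26.9, 29.8 and 34.5 FPKM in ND islets and 84.5, 44.6 and 50.7 in HFD islets, or 30.4 ± 3.81 against 59.9 ± 21.5 (SD, n = 3 each). The groups did not overlap, and the log2 difference was 0.91 ± 0.23 (SE; limma unadjusted p = 0.00156, adjusted p = 0.114). Hspa1a was at 20.2, 23.3 and 27.3 FPKM in ND and 70.6, 36.2 and 36.7 in HFD islets, with a log2 difference of 0.93 ± 0.24 (adjusted p = 0.114). Their sum gave 0.93 ± 0.24 (adjusted p = 0.114), and Hspa1b stood at 1.2 to 1.38 times Hspa1a in each of the 6 libraries. HFD replicate 1 held the highest value of both. Without that library the differences were 0.64 for Hspa1b and 0.61 for Hspa1a (adjusted p = 0.341 for both), and the remaining HFD libraries still lay above all ND libraries. Without ND replicate 3, 3 of 10 members passed the limma test: Hspa1a, Hspa1b and Hspb1 (1.03, 1.00 and 0.80 in log2, adjusted p = 0.027, 0.0296 and 0.0445). In that fit 373 of 11648 genes were called in all, 355 higher and 18 lower in HFD. After median ratio scaling the differences were 0.56 for Hspa1b (adjusted p = 0.48) and 0.58 for Hspa1a (adjusted p = 0.492).

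Hspa8, the constitutive relative of both, did not differ beyond its spread: it was at 250.5, 302.6 and 312 FPKM in ND and 369, 230.5 and 281 in HFD islets (log2 difference 0.00 ± 0.22, adjusted p = 0.986), and at -0.35 after scaling (adjusted p = 0.537). The ratio of Hspa1b to Hspa8 within a library sets the inducible against the constitutive Hsp70 and does not depend on scaling. It was 0.107, 0.0984 and 0.11 in ND islets and 0.229, 0.193 and 0.18 in HFD islets. Means were 0.105 ± 0.00619 and 0.201 ± 0.0251 (SD, n = 3 each), with all HFD libraries above all ND libraries. The ratio of Hspa1a to Hspa8 behaved alike, at 0.0808, 0.077 and 0.0874 in ND and 0.191, 0.157 and 0.13 in HFD islets. So did the ratio of Dnajb1 to Hspa8, at 0.052, 0.049 and 0.0618 in ND and 0.143, 0.0692 and 0.0686 in HFD islets. The groups overlapped for Dnajb1 itself. How many of all genes would separate the groups in their ratio to Hspa8 was not counted. A two-sided exact permutation test over the 3 and 3 libraries gave p = 0.1 for each, the smallest it can give with this design, and 0.2 after adjustment over the 6 ratios compared. These ratios were set up after the values had been seen. They are given as a description, and do not show that Hspa8 stayed level.

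**Figure D4:**
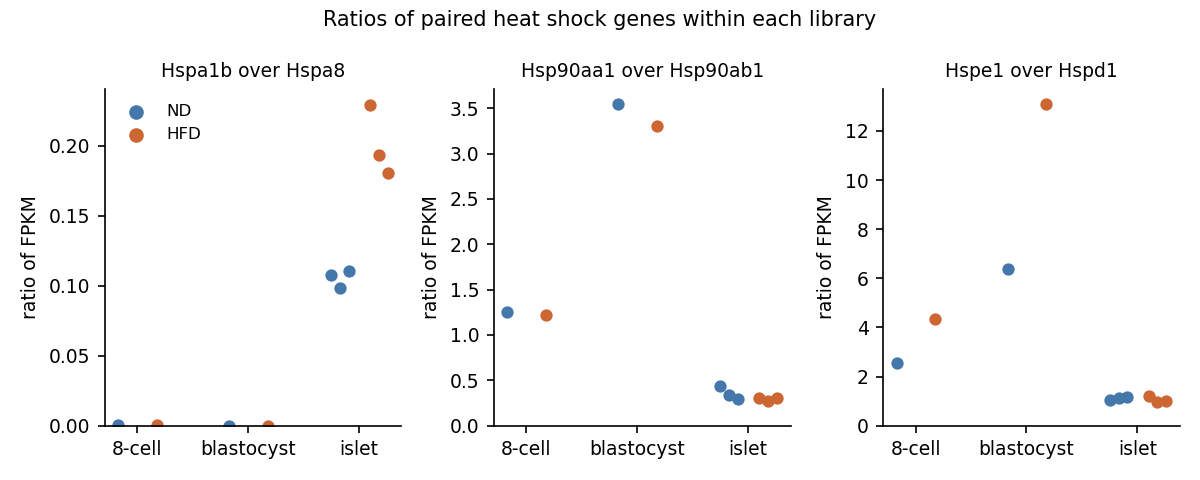
Ratios of FPKM between paired heat shock genes within each library, on linear axes from 0, ND in blue and HFD in orange, with 1 pool per point in embryos and 3 libraries per group in islets. Hspa1b over Hspa8 is 0.0984 to 0.11 in ND and 0.18 to 0.229 in HFD islets and near 0 in embryos. Hsp90aa1 over Hsp90ab1 is above 1 in embryos and below 0.44 in islets. Hspe1 over Hspd1 is higher in the blastocyst than in the 8-cell pools. Embryo and islet libraries were made with different kits, so the sizes of these ratios are not compared between them.

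Dnajb1 was at 13.1, 14.8 and 19.3 FPKM in ND and 52.8, 15.9 and 19.3 in HFD islets, a log2 difference of 0.68 ± 0.34 (adjusted p = 0.181). The groups overlapped, and the difference rested on HFD replicate 1: without it, the value was 0.16. Hspb1 was at 21.7, 20.6 and 40.6 FPKM in ND and 45.2, 31.9 and 36.8 in HFD islets (0.50 ± 0.24, adjusted p = 0.174), where ND replicate 3 lay among the HFD values; without a library the difference ran from 0.33 (ND replicate 2 left out) to 0.80 (ND replicate 3 left out). Hsph1 was at 12.0, 18.6 and 14.8 FPKM in ND and 21.9, 10.2 and 14.3 in HFD islets (-0.01 ± 0.24, adjusted p = 0.968), and its groups overlapped fully.

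Hsp90ab1 was at 150.1, 208 and 228 FPKM in ND and 326, 209.9 and 267 in HFD islets (0.45 ± 0.23, adjusted p = 0.181), with HFD replicate 2 inside the ND range. Hsp90aa1 was at 65.7, 69.2 and 67.7 FPKM in ND and 101, 56.6 and 82.7 in HFD islets (0.21 ± 0.21, adjusted p = 0.445); its ND libraries lay close together and its HFD libraries on both sides of them. Their ratio, Hsp90aa1 over Hsp90ab1, was 0.356 ± 0.0729 in ND and 0.296 ± 0.0233 in HFD islets (SD, n = 3 each; exact permutation p = 0.3). Hspd1 was at 27.1, 30.9 and 30.5 FPKM in ND and 41.6, 32.3 and 34.97 in HFD islets (0.29 ± 0.17, adjusted p = 0.225), a difference close to that of the median gene. Hspe1 was at 27.9, 34.4 and 35.5 FPKM in ND and 50.2, 31.5 and 34.7 in HFD islets (0.22 ± 0.20, adjusted p = 0.386). The ratio of Hspe1 to Hspd1 was 1.10 ± 0.0683 in ND and 1.06 ± 0.129 in HFD islets (exact permutation p = 0.6). After scaling, Hsp90aa1, Hspd1 and Hspe1 lay below 0 (-0.15, -0.06 and -0.12). Without HFD replicate 1 the differences fell to 0.02 for Hsp90aa1, 0.03 for Hspe1, 0.19 for Hspd1 and 0.30 for Hsp90ab1, and without HFD replicate 2 they were 0.43, 0.35, 0.36 and 0.62. Hsp90ab1 and Hspe1 were also smaller without ND replicate 1 (0.28 and 0.12). None of these passed the test.

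HFD replicate 1, the highest library for all 10 members, also had the highest FPKM sum (1033000, against 730400 to 896400 in the other islet libraries). Other genes, such as Fos, Jun and Calr, were highest there too, and others, such as Fkbp4 and Afg3l2, were not. The share of all genes that were highest in HFD replicate 1 was not counted. This library had the lowest acinar sum (84400 FPKM) and the highest beta cell sum (694700 FPKM). That beta cell sum was mostly Ins2 (582300 FPKM). Ins1, Ins2, Iapp and Ucn3 were highest in this library, and Pdx1, Mafa, Nkx6-1, Slc2a2, G6pc2 and Slc30a8 in another. Summed alpha, delta and PP cell markers were at 3870 to 8182 FPKM in ND and 3123 to 6157 in HFD islets, lowest in HFD replicate 1. Summed endothelial markers were at 103 to 161 FPKM in ND and 201 to 265 in HFD islets, stromal markers at 57.1 to 101 and 114 to 160, and immune markers at 60.6 to 136 and 110.4 to 244. In these bulk samples a different number of cells of a type and a different amount of RNA per cell cannot be told apart. The part of these markers in the differences of Hspa1a and Hspa1b was not tested.

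The rest of the chaperone system showed no called gene in islets: 0 of 4 Hsf genes, 0 of 8 other Hsp70 and Hsp110 genes, 0 of 14 J-domain genes, 0 of 9 Hsp70 co-chaperones, 0 of 15 Hsp90 co-chaperones, 0 of 4 small heat shock genes, 0 of 15 mitochondrial chaperones and proteases, 0 of 8 chaperonin and 0 of 5 prefoldin subunits, and 0 of 15 endoplasmic reticulum chaperones. At an unadjusted p under 0.05 there were 21 of 97 in these lists, all higher in HFD, a smaller share than the 30.5% of all genes; of all genes with a symbol used once, 11006 of 11727 lay above 0. Their medians ran from 0.17 (other Hsp70 and Hsp110 genes) to 0.37 (endoplasmic reticulum chaperones), around the 0.30 of all genes. Hsf1 was at 6.62, 11.03 and 11.4 FPKM in ND and 13.4, 11.1 and 11.2 in HFD islets (0.30, adjusted p = 0.27), so its groups overlapped. Of the Hsp70 co-chaperones the most abundant, St13, had a log2 difference of 0.10 (adjusted p = 0.631) and Bag1 of 0.33 (adjusted p = 0.173). Stub1, the ubiquitin ligase that works on Hsp70 clients and the next in abundance, was at 20.4, 29.8 and 22.5 FPKM in ND and 42.0, 37.04 and 34.25 in HFD islets (0.63, adjusted p = 0.12). Immediate early genes, which are induced within minutes of many stimuli, had 0 of 21 called by limma (17 at an unadjusted p under 0.05, against 30.5% of all genes), with 20 above 0, as were 11006 of 11727 genes, and a median of 0.62 (0.28 after scaling); their summed level was 452 to 686 FPKM in ND and 745 to 1123 in HFD islets. Fos, the most abundant, was at 103, 134.5 and 153 FPKM in ND and 261, 177 and 169 in HFD islets (0.62, adjusted p = 0.13).

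Across the 6 islet libraries the members followed each other to different degrees. Hspa1a and Hspa1b followed each other (Pearson r of log2(FPKM + 1) 0.99) and Hspd1 (0.97 with each), whereas Hspa8 followed Hsph1 (0.95) more closely than Hspa1b (0.53). Others lay between: Hspe1 had 0.88 with Hspa8 and 0.84 with Hspa1b, and Dnajb1 0.79 and 0.91. Among 3709 other genes averaging 10 FPKM or more, those most like Hspa1b were Gadd45g (0.996), Pcyt2, Mrps33, Gng5 and Mboat2 (0.988 for the fifth). Those most like Hspa8 were Slc12a7 (0.964), Defb1, Ggcx, Agtpbp1 and Hsbp1 (0.912 for the fifth). These coefficients describe 6 libraries that share the shift of the median gene and the high values of HFD replicate 1.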

How the data were processed

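Sperm small RNA (4 libraries) and bisulfite data (2) of the 16 samples were not used here. Gene levels in the 10 libraries used were FPKM deposited by the authors, a unit named per the file headers. TopHat2 2.0.8b and build mm10 were used for embryos and islets, and Cufflinks for embryos, per the submitters' processing notes. Stranded TruSeq (islets) and Smart-Seq2 (embryos) libraries were made, per the labels' protocols. Listed starts were raised by 1, which equals the RefSeq start for 7 of the 10 genes.

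Members and gene lists were chosen with earlier results of these data known. In islets, genes reaching 1 FPKM in 3 of 6 libraries entered a two-sided limma 3.58.1 fit (R 4.3.3) of log2(FPKM + 1) with a variance trend, at a Benjamini-Hochberg adjusted p under 0.05 over all genes tested. A pseudocount of 1 understates differences of low genes. Embryos were fitted likewise with stage and injection (1 FPKM reached in 2 of 4 libraries), and HFD to ND ratios at each stage were counted past a log2 ratio of 1 among genes averaging 10 FPKM or more. Of the embryo genes, 10 with a failed status were left out. Tested on simulated data, the islet fit recovered 76 of 100 genes changed by 1 in log2 and 97 of 100 changed by 2. The changed genes averaged above 10 FPKM, and the noise was independent between genes, without the shift that the real islet libraries share. These counts therefore do not tell how many real changes of that size the fit would find. From each list up to 4 genes could be named, called genes first and then the most abundant. Genes most like Hspa8 and Hspa1b were ranked by Pearson r over the islet libraries. Alternatives were another pseudocount, other filters, median ratio scaling, no variance trend, the replicate number as a block, the sum of Hspa1a and Hspa1b, and each library left out.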

Additional observations from a re-analysis of the deposited data

Results flagged for a closer look

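Hspb1 was higher in the HFD than in the ND pool at the 8-cell stage (log2 ratio 0.69) and lower in blastocysts (log2 ratio -1.29). It was the only member with a mean of at least 10 FPKM at both stages whose deposited values went opposite ways at the 2 stages. Among other chaperone genes at that level, Cct3 (0.30 and -0.53) and Hspa4 (-0.26 and 0.34) did so too, while Cct5 and Hspa9 did not. The share of all genes that went opposite ways was not counted. With 1 pool per group and stage, the difference between the stages was not tested.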

How the results depend on the processing

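The count of islet members called stayed at 0 under the other pseudocount, both other filters, median ratio scaling, no variance trend and the sum of Hspa1a and Hspa1b, and ran from 0 to 3 with a library left out. All islet genes called were 6 as fitted, 3 at a pseudocount of 0.1, 0 without a filter (from 18188 genes), 2 after scaling, 10 without the variance trend and 0 to 373 with a library left out. Over all genes, libraries with the same replicate number showed no likeness (correlations of -0.030, 0.038 and 0.035). Such a measure cannot tell whether the numbers pair the libraries for a part of the genes. With the replicate block in limma 2 of 10 members, Hspa1a and Hspa1b (adjusted p = 0.00965 and 0.0124), and 590 of 11737 genes were called. Of the 590 genes, 537 were higher and 53 lower in HFD. After scaling the islet differences of Hspa8 (-0.35), Hsp90aa1 (-0.15), Hspd1 (-0.0583) and Hspe1 (-0.12) changed sign, as did Hsp90ab1 in the injection model (0.0237), by construction of the scaling; with a library left out, Hspa8 ran from -0.17 to 0.17 and Hsph1 from -0.28 to 0.23 in islets, and the stage differences of Hspa8 from -0.0061 to 0.78 and Dnajb1 from -0.68 to 0.24. Stage calls of members were 3 to 4, and of all genes 2333 to 3309, with a library left out and stage as the only term, against 4 and 4109 in that fit with all 4 libraries and 5 and 4609 with injection as a second term. Scaling put 1 member past the fold at the 8-cell stage, and moved the split of genes past the fold from 72 higher and 183 lower to 136 and 36 there, and from 53 and 203 to 108 and 100 in blastocysts; stage calls moved from 3059 higher and 1550 lower to 2349 and 2284. At a mean of at least 1 FPKM, 686 and 573 genes passed the fold against 255 and 256. Of the single-gene values under alternatives, 282 were alike in direction and side of the threshold, 16 ratios moved by 0.1 or more, 13 reversed, 12 lost and 5 gained a call. Leaving out a library in the injection model or the ratios gives no test.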
